A study of Mus musculus with 56 samples.

Results

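The genes described here are 8 antagonists of Wnt signalling, namely Sfrp1, Sfrp2, Frzb, Wif1, Dkk2, Dkk3, Kremen1 and Cxxc4, chosen by gene symbol from the 55386 genes in the deposited count tables. All 8 are present in each table. RNA came from barrel cortex of mice at postnatal day 5, the region that maps the whiskers, 24 hours after cautery of the right whiskers on day 4, so that the left cortex was the deprived side. Ribosomes carrying an EGFP-tagged L10a protein were pulled down from each cortical piece, and both the bound RNA, meant to enrich transcripts of the tagged cell type, and the unbound RNA, which stands for the whole tissue, were sequenced. In the astrocyte line (Aldh1l1::eGFPL10a) the tag is driven by the Aldh1l1 promoter, and these mice received no tamoxifen. In the heterozygous microglial line (Cx3cr1CreErt2/+(Litt) Eef1a1LSL.eGFPL10a/+) the tag is switched on by a tamoxifen-inducible Cre inserted in Cx3cr1. The knockout line (Cx3cr1CreErt2/CreErt2(Litt) Eef1a1LSL.eGFPL10a/+) carries that insertion on both copies of Cx3cr1, the microglial receptor for fractalkine, and is labelled a knockout. Tamoxifen was given on days 1 to 3 to both microglial lines, in the heterozygous line as 50 µg by mouth each day. Each combination of line, fraction and condition held 5 libraries in the astrocyte and knockout lines and 4 in the heterozygous line, 56 in all, with pieces of female and male mice in every group. The series title names Wnt signalling as the route of crosstalk between microglia and astrocytes in synapse remodelling.

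Wnt ligands are secreted proteins that bind Frizzled receptors together with the co-receptors Lrp5 and Lrp6 at the cell surface. Inside the cell the signal passes through Dishevelled and lets β-catenin build up and switch on target genes with Tcf and Lef factors. The antagonists act at different steps. The secreted Frizzled-related proteins (Sfrp1, Sfrp2, and Frzb, also called Sfrp3) and Wif1 bind Wnt ligands outside the cell, Dkk2 binds Lrp5 and Lrp6, Kremen1 is a membrane receptor for Dkk proteins, and Cxxc4, also called Idax, binds Dishevelled in the cytoplasm and has a zinc finger of the kind that binds unmethylated CpG DNA. Dkk3 is the divergent member of the Dickkopf family, and its effect on Wnt signalling is less settled. In the developing brain, antagonists of this kind limit where and when Wnt ligands act during patterning and cell differentiation.

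Library totals were 10081228 to 28584281 gene counts in the astrocyte line and 32772396 to 56689296 in the microglial lines. Levels are in counts-per-million units (CPM) after TMM scaling, and differences are log2 values ± SE from edgeR's quasi-likelihood test. Every adjusted p below is from that test unless DESeq2 is named, with Benjamini-Hochberg adjustment over all genes tested, and a gene is said to rise or fall where it is under 0.05. Cx3cr1 was at 6.56 to 12.6 CPM in the bound heterozygous libraries and at 0.338 to 1.26 CPM in the bound knockout libraries. Aldh1l1 was at 38.9 to 54.8 CPM in bound and 10.9 to 14.3 CPM in unbound RNA of the astrocyte line. In the astrocyte line 19 of 20 astrocyte markers were higher in bound RNA (median log2 difference 1.09), and all 20 microglia markers were higher in the heterozygous (2.81) and knockout (2.73) lines. RNA of other cells was nevertheless present in the bound fractions. The 18 neuron markers summed to 12200 to 16090 CPM in bound RNA of the astrocyte line, against 5053 to 6427 CPM for the astrocyte markers, and to 12380 to 17390 CPM in bound RNA of the heterozygous line, against 281.7 to 611.6 CPM for the microglia markers. A bound value of an antagonist is therefore a level in a mixture, and fewer cells of a type and less RNA per cell cannot be told apart.

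In the heterozygous line the titles and the side letters of the pieces disagree. Its control libraries belong to the pieces 14R, 15R, 21L and 21R. Its deprived libraries are 14L, 15L, 17L and 17R, where the number is the mouse and L or R the side. Piece 17R is titled deprived and piece 21L is titled control, although the cauterised side would put deprivation on the left. Samples are grouped by title here, and the main results of the members are also given without pieces 17R and 21L. Except where a replicate block or a sum per animal is named, every library counts as a replicate. Both pieces of mouse 17 are in the deprived group, both of mouse 21 in the control group, and mice 14 and 15 gave a piece to each. The p-values of the microglial lines, also between these lines, therefore treat pieces of the same mouse as independent. Knockout pieces are all left for deprived and right for control, and the labels of the astrocyte line name no animals, so that p-values there measure only the spread between samples, which may be technical.

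The promoter table of RefSeq (build GRCm38.p6) holds 5 of the 8 genes, and the stretch before the transcription start is shown for 3 of them: Cxxc4, the member that fell with deprivation in one line, Dkk2, which was higher in bound RNA in every line, and Sfrp2, which was lower in bound RNA in every line. Each runs 5′ to 3′ on the plus strand up to the base before the annotated gene. Capitals mark CG dinucleotides and, in Dkk2, the letters TATAAA.
Cxxc4, chr3:134236245-134236483: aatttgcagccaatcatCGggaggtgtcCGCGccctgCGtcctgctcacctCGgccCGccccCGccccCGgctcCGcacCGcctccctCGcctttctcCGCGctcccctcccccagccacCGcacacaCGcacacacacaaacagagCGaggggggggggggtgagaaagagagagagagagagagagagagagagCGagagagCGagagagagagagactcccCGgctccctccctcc
Dkk2, chr3:132085042-132085291: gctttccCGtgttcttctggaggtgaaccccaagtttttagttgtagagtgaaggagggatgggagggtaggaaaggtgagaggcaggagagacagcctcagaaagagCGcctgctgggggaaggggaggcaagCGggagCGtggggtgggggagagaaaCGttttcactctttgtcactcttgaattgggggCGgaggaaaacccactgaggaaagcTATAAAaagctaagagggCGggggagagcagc
Sfrp2, chr3:83766071-83766320: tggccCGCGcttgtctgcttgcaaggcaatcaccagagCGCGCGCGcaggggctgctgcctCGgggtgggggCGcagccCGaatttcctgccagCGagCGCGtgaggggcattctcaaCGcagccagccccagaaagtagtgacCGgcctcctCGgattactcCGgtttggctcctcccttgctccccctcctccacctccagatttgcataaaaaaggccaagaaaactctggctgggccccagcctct

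The Cxxc4 stretch holds 19 CG dinucleotides in 239 bases, that of Sfrp2 16 in 250 and that of Dkk2 7 in 250. Over the 250 bases before the start of 27025 promoters in the table the median was 6.0, and Cxxc4, Sfrp2 and Dkk2 had more than 82%, 74% and 53% of them, with 20, 16 and 7 in that window. The Tcf and Lef letters CTTTGAT and CTTTGAA, searched on both strands, were in none of the 5 members' windows, which also cover Frzb and Wif1, against 3.23% and 4.64% of all promoters. TATAAA, searched likewise, was in those of Dkk2 and Wif1 and in 3504 of the 27025 promoters. CTTTGAT and CTTTGAA differ in the last letter alone, and a CG reads the same on both strands and is counted 1 time. These are matches of letters in 1 window per gene.

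Measured per kilobase of exon, so that genes can be set against each other, the antagonists formed a high group and a low group in every line. Dkk3 (ENSMUSG00000030772, chromosome 7, 112116017 to 112159057, minus strand in GRCm38), Cxxc4 (ENSMUSG00000044365, chromosome 3, 134236484 to 134262161, plus strand) and Sfrp1 (ENSMUSG00000031548, chromosome 8, 23411502 to 23449632, plus strand) were the high group. In unbound RNA of the astrocyte line they stood at 21.8 ± 2.34, 20.8 ± 1.82 and 14.7 ± 1.39 CPM per kb (mean ± SD, n = 10). Dkk3 and Cxxc4 overlapped in range there, and Sfrp1 lay below both. Sfrp2 (ENSMUSG00000027996, chromosome 3, 83766321 to 83774316, plus strand) followed at 3.99 ± 0.583 CPM per kb and Frzb (ENSMUSG00000027004, chromosome 2, 80411970 to 80447625, minus strand) at 2.09 ± 0.331, and these did not overlap. Kremen1 (ENSMUSG00000020393, chromosome 11, 5191552 to 5261558, minus strand) at 0.597 ± 0.0785 and Dkk2 (ENSMUSG00000028031, chromosome 3, 132085292 to 132180304, plus strand) at 0.564 ± 0.154 CPM per kb overlapped each other. Wif1 (ENSMUSG00000020218, chromosome 10, 121033960 to 121100650, plus strand) was lowest at 0.123 ± 0.0555 CPM per kb.

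In unbound RNA the order of the microglial lines was Cxxc4, Dkk3, Sfrp1, Sfrp2, Frzb, Kremen1, Dkk2 and Wif1 by mean, with Cxxc4 and Dkk3, and Kremen1 and Dkk2, overlapping in range in both lines, and Sfrp2 and Frzb in the knockout line. In bound RNA of the astrocyte line Dkk3 (22.0 ± 1.49 CPM per kb), Sfrp1 (20.1 ± 2.24) and Cxxc4 (16.8 ± 1.74) followed each other with overlapping ranges, which put Sfrp1 above Cxxc4 there. Wif1 rested on very few reads, 0 to 21 counts in any library, and passed the filter on low counts in only some of the comparisons. The other 7 members passed it in every comparison. Some exon bases of Cxxc4 and Sfrp2 are shared with antisense genes (Gm26691, 243 bases, and Gm26771, 347 bases), and Cxxc4 also contains the microRNA gene Mir1895. Whether strand was used in counting is not stated, so reads of these genes and their antisense partners cannot be told apart.

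Mean unbound levels, over control and deprived pieces, differed between the tables, each of which was scaled on its own. Sfrp1 stood at 64.2 CPM in the astrocyte line against 34.8 (heterozygous) and 35.8 CPM (knockout), Dkk3 at 73.1 against 46.0 and 49.8, Sfrp2 at 8.58 against 4.26 and 4.73, and Cxxc4 at 279 against 253 and 234. The line, the tamoxifen and the table cannot be told apart in these values, and no test was made of them between the astrocyte line and the others.

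**Figure D1:**
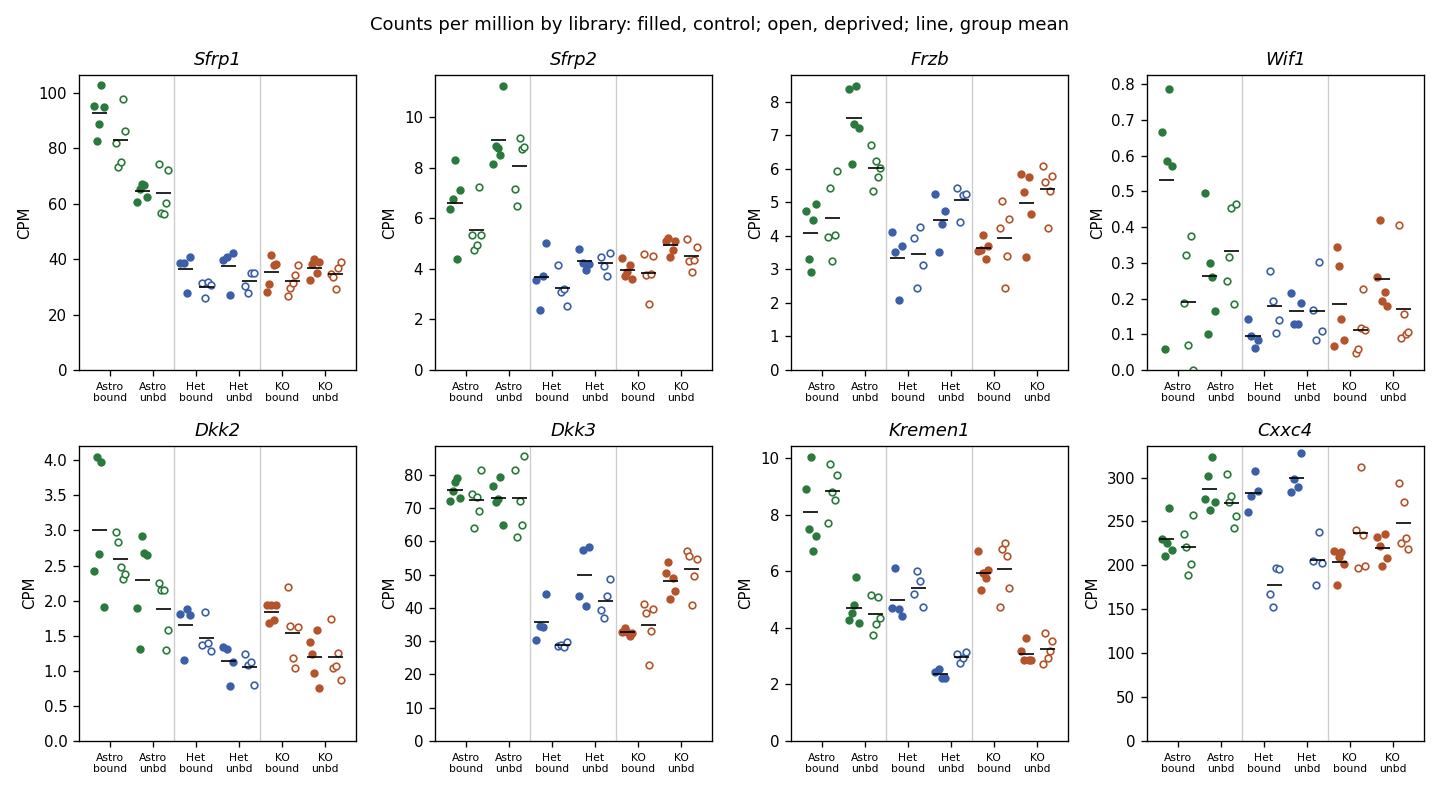
Level of each antagonist in all 56 libraries, in CPM on a linear axis from 0, by line (astrocyte, heterozygous, knockout) and fraction (bound, unbound); filled points are control libraries, open points deprived libraries and lines group means. Cxxc4 in the heterozygous line is the member whose control and deprived points separate in both fractions, and Kremen1 is higher in bound than in unbound RNA in all 3 lines.

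Setting bound against unbound RNA asks which transcripts are richer in the pulled-down RNA, which also held RNA of other cells, than in the tissue. Whether a difference came from the tagged cells was not tested. In the astrocyte line 3 of the 7 members tested were higher in bound RNA and 3 lower, against 31.5% and 27.6% of the 18324 genes tested. The called share of all those genes in either direction was 59.1%. Heterozygous mice had 2 members higher and 4 lower of 7, against 31.8% and 30.8% of 19275 genes (62.6% in either direction). Knockout mice had 2 higher and 3 lower of 8, against 31.6% and 30.4% of 19681 genes (61.9%). With 7 or 8 members tested the members' shares are coarse, and they were not tested against those of all genes. The members' median differences were 0.06, -0.18 and -0.20 against 0.03, -0.01 and -0.01 over all genes tested.

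Kremen1, the Dkk receptor, had the largest bound-to-unbound difference of the members tested in each line. Its bound levels in the astrocyte line ran from 6.74 through a median of 8.67 to 10.1 CPM, against 3.74, 4.44 and 5.80 CPM unbound. In the heterozygous line they ran from 4.41 through 4.96 to 6.12 CPM against 2.21, 2.65 and 3.13, and in the knockout line from 4.73 through 5.99 to 6.99 CPM against 2.71, 3.05 and 3.82. Bound and unbound libraries did not overlap in any line. The log2 differences were 0.92 ± 0.09 (adjusted p = 2.3e-09), 0.93 ± 0.09 (2.2e-08) and 0.92 ± 0.09 (4.8e-09), a 1.89-fold to 1.91-fold difference. The bound-to-unbound ratio within a piece (in the astrocyte line, between libraries of the same number and condition) was above 1 in all 10, 8 and 10 cases, with medians of 1.90, 1.95 and 1.94. Without pieces 17R and 21L the heterozygous difference was 0.98 ± 0.11 (1.2e-06). Between the astrocyte and heterozygous lines the enrichment differed by 0.07 ± 0.13 (adjusted p = 0.72).

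Dkk2, which binds the co-receptors Lrp5 and Lrp6, was also higher in bound RNA, by 0.46 ± 0.17 (adjusted p = 0.019), 0.46 ± 0.16 (0.014) and 0.48 ± 0.16 (0.013), lines in the same order. Its level was low, at 2.80 against 2.09 CPM, 1.56 against 1.10 CPM and 1.69 against 1.19 CPM for bound against unbound means, with 13 to 98 counts per library. The ratio was above 1 in 8 of 10, 7 of 8 and 9 of 10 pieces, and the bound and unbound ranges overlapped in each line. Without pieces 17R and 21L the difference of the heterozygous line was 0.34 ± 0.17 and missed the threshold (adjusted p = 0.088).

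Frzb and Sfrp2, both of which bind Wnt ligands, were lower in bound RNA in each line. Frzb stood at 4.30 CPM bound against 6.76 unbound in the astrocyte line, 3.40 against 4.78 in the heterozygous line and 3.78 against 5.19 in the knockout line. Its log2 differences were -0.61 ± 0.11 (adjusted p = 3.4e-05), -0.53 ± 0.14 (0.0022) and -0.47 ± 0.12 (0.0013). Sfrp2 stood at 6.05 against 8.58, 3.46 against 4.26 and 3.90 against 4.73 CPM, and fell by 0.47 ± 0.11 (0.0004), 0.34 ± 0.13 (0.026) and 0.29 ± 0.09 (0.0088) on the log2 scale. The bound-to-unbound ratio of Frzb was below 1 in 9 of 10, 7 of 8 and 9 of 10 pieces, and that of Sfrp2 in 10 of 10, 7 of 8 and 10 of 10. In the heterozygous line Frzb fell by 0.40 ± 0.14 without pieces 17R and 21L (0.022), while the Sfrp2 difference was then -0.28 ± 0.15 and missed the threshold (0.13). It also missed it when the bound library of 15R or 17R or the unbound library of 14R or 17R was left out (0.052 to 0.062).

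Sfrp1 and Dkk3 were the members whose bound-to-unbound difference was called between the astrocyte and heterozygous lines. Sfrp1, a secreted binder of Wnt ligands, ranged over 73.2, 87.5 and 102.7 CPM (lowest, median, highest) in bound RNA of the astrocyte line and over 56.5, 64.0 and 74.3 CPM in unbound RNA. It rose by 0.49 ± 0.06 (adjusted p = 3e-08), 1.41-fold, with a ratio above 1 in 10 of 10 pieces, although the lowest bound library lay below the highest unbound one. In the heterozygous and knockout lines it stood at -0.11 ± 0.09 (0.30) and -0.11 ± 0.07 (0.22), with means of 33.2 against 34.8 CPM and 33.7 against 35.8 CPM. With the cortical piece as a replicate block its adjusted p in the heterozygous line was 0.036. The difference between the astrocyte and heterozygous lines was itself tested and came to 0.68 ± 0.11 (adjusted p = 2.5e-06).

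Dkk3 had a difference between lines of like size from other values. In the astrocyte line its bound mean of 74.0 CPM lay beside an unbound mean of 73.1 CPM, a difference of 0.06 ± 0.06 (adjusted p = 0.39). In the heterozygous and knockout lines it fell by 0.55 ± 0.08 (6.4e-06) and 0.57 ± 0.08 (2.5e-06) on the log2 scale, to 32.3 against 46.0 and 33.8 against 49.8 CPM, and the ratio was below 1 in 8 of 8 and 10 of 10 pieces. The astrocyte minus heterozygous difference was 0.68 ± 0.10 (adjusted p = 6.7e-07). In that test 2 of 8 members were higher and 0 lower, against 24.7% and 17.1% of 21503 genes (41.8% in either direction), and the median over all genes tested was 0.14. Without pieces 17R and 21L Dkk3 of the heterozygous line stood at -0.54 ± 0.09 (9.2e-05) and Sfrp1 at -0.09 ± 0.07 (0.28), and the difference between lines was 0.67 ± 0.09 for Sfrp1 (3.9e-07) and 0.69 ± 0.10 for Dkk3 (2.3e-06). Astrocyte markers were higher in bound RNA in the astrocyte line (19 of 20) and lower in the heterozygous line (12 of 20 lower, 3 higher), and their part in these differences was not tested.

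Cxxc4, the intracellular antagonist, was slightly lower in bound RNA. It fell by 0.27 ± 0.06 (adjusted p = 0.00017) and 0.18 ± 0.06 (0.017) in the astrocyte and heterozygous lines, from unbound means of 279 and 253 CPM to 225 and 230 CPM. In the heterozygous line it was -0.14 (0.055) without the unbound library of 17L and -0.23 ± 0.08 (0.016) without pieces 17R and 21L. In the knockout line it stood at -0.10 ± 0.08 (0.26), and with the cortical piece as a replicate block at -0.11 ± 0.05 (0.046), and without the bound library of piece 18L at -0.20 (0.009). Wif1 was tested in the knockout line only, at -0.52 ± 0.37 (0.23), with means of 0.15 CPM bound and 0.21 CPM unbound, and differed between the astrocyte and heterozygous lines by 0.65 ± 0.56 (0.37).

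**Figure D2:**
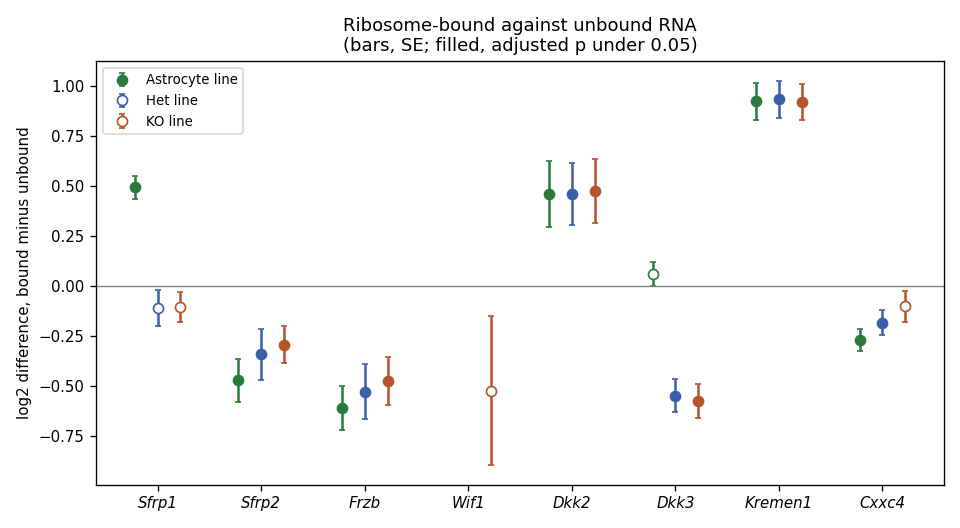
Log2 difference of bound minus unbound RNA (y axis) for each antagonist (x axis) in the astrocyte, heterozygous and knockout lines; points are edgeR estimates, bars SE and filled points have an adjusted p under 0.05. Kremen1 and Dkk2 lie above 0 and Frzb and Sfrp2 below 0 in all 3 lines, while Sfrp1 and Dkk3 of the astrocyte line lie apart from those of the microglial lines.

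Of the other genes in the lists of Wnt ligands, receptors, transducers and further antagonists, 48 of 85 tested were higher in bound RNA and 8 lower in the astrocyte line, where 31.5% of all genes were higher and 27.6% lower. Heterozygous mice had 45 higher and 8 lower of 84, against 31.8% and 30.8% of all genes, and knockout mice 47 and 7 of 86, against 31.6% and 30.4%. The medians were 0.37, 0.29 and 0.34, against 0.03, -0.01 and -0.01 over all genes tested. The lists were chosen with earlier results of these data known. Among the other antagonists Apc2 and Apc, scaffold proteins of the complex that destroys β-catenin, were higher in bound RNA by 1.79 ± 0.06 and 0.92 ± 0.06 in the astrocyte line and by 2.41 ± 0.07 and 1.88 ± 0.08 in the heterozygous line. The ligand gene Wnt5a was higher by 1.10 ± 0.11 (astrocyte), 0.87 ± 0.09 (heterozygous) and 0.83 ± 0.11 (knockout). The ligand-like Ndp and the receptor partner Tspan12, which act together at Frizzled4, differed between the astrocyte and heterozygous pulldowns by 1.73 ± 0.14 (adjusted p = 4.7e-13) and 1.34 ± 0.10 (5.1e-14), beside the 0.68 of Sfrp1 and Dkk3.

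Setting deprived against control cortex asks what 1 day without whisker input does to each antagonist. In the astrocyte line none of the 7 members tested was called in either fraction, against 0.0% of 17685 genes in bound and 0.0% of 16846 genes in unbound RNA, and DESeq2, which called 7 and 0 genes in all, also called none of them. At an unadjusted p under 0.05 there were 1067 and 1043 genes in all, and among the members Sfrp1 in bound RNA (-0.18 ± 0.08, adjusted p = 0.82, edgeR) and Frzb in unbound RNA (-0.33 ± 0.11, adjusted p = 0.68, edgeR). Unbound Frzb was 8.38, 6.15, 7.34, 8.48 and 7.20 CPM in control pieces and 6.71, 5.32, 6.23, 5.76 and 6.02 CPM in deprived pieces. The lowest control value lay among the deprived values. Member differences ran from -0.26 to 0.12 in bound and from -0.33 to -0.01 in unbound RNA.

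In the knockout line none of the 7 members tested was called in either fraction, against 0.00546% of 18324 genes (1 gene) in bound and 0.038% of 18421 genes (7 genes) in unbound RNA. No member had an unadjusted p under 0.05 with edgeR, and DESeq2 called none. The differences ran from -0.28 to 0.21 in bound and from -0.15 to 0.15 in unbound RNA. Cxxc4 was the member farthest above 0, at 0.21 ± 0.12 (adjusted p = 1.0) and 0.15 ± 0.08 (1.0). Sfrp1 was lower in the deprived bound piece of 5 of 5 mice, by 0.01 to 0.39 on the log2 scale, with an estimate of -0.15 ± 0.12 (1.0).

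**Figure D3:**
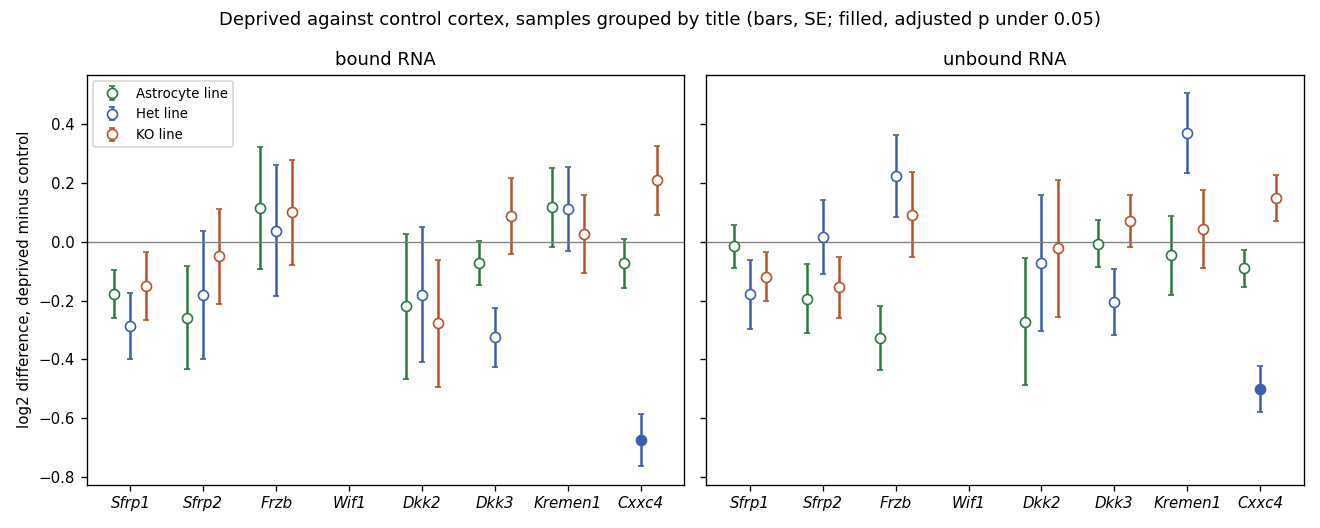
Log2 difference of deprived minus control cortex (y axis) for each antagonist (x axis) in bound RNA (left panel) and unbound RNA (right panel) of the 3 lines, samples grouped by title; points are edgeR estimates, bars SE and filled points have an adjusted p under 0.05. Cxxc4 of the heterozygous line is the filled point in each panel, at -0.67 and -0.50; Wif1 did not pass the filter on low counts.

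In the heterozygous line Cxxc4 fell in both fractions. In bound RNA the deprived pieces 14L, 15L, 17L and 17R held 167.8, 152.1, 196.6 and 195.6 CPM and the control pieces 14R, 15R, 21L and 21R held 261.0, 278.5, 307.4 and 284.2 CPM. In unbound RNA the deprived pieces held 205.4, 177.2, 237.6 and 202.6 CPM and the control pieces 283.2, 297.9, 289.6 and 327.7 CPM. Every deprived piece lay below every control piece in both fractions. The fall was 0.67 ± 0.09 on the log2 scale, 1.60-fold, in bound RNA (adjusted p = 0.0012) and 0.50 ± 0.08, 1.42-fold, in unbound RNA (0.0029), and bound minus unbound the fall differed by -0.13 ± 0.13 (0.80). These p-values, and the calls over all genes, count both pieces of mouse 17 and both of mouse 21 as replicates. Cxxc4 was the only 1 of 7 members called lower, against 4.76% of 18001 genes in bound and 1.05% of 18073 genes in unbound RNA, and none was called higher, against 5.52% and 2.7%. In either direction 10.3% and 3.75% of genes were called.

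The call was kept where titles and side letters agree, and was lost when all pieces were grouped by side letter. Without pieces 17R and 21L it was -0.67 ± 0.10 (adjusted p = 0.0072) in bound and -0.50 ± 0.10 (0.031) in unbound RNA. In mice 14 and 15 alone, where titles and sides agree, with the animal as replicate block, it was -0.75 ± 0.10 (0.00024) and -0.56 ± 0.08 (0.0014). Grouped by side letter it was -0.30 ± 0.20 (0.91) and -0.24 ± 0.15 (0.86), and no gene of the table was called. Within mice 14 and 15 the left piece was lower than the right by 0.64 and 0.87 in bound RNA, and within mice 17 and 21, whose pieces carry the same title on both sides, left minus right was 0.01 and 0.11. In unbound RNA left minus right was -0.46, -0.75, 0.23 and -0.18 in mice 14, 15, 17 and 21. In the 5 knockout mice it ran from -0.02 to 0.58 in bound and from -0.03 to 0.45 in unbound RNA.

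**Figure D4:**
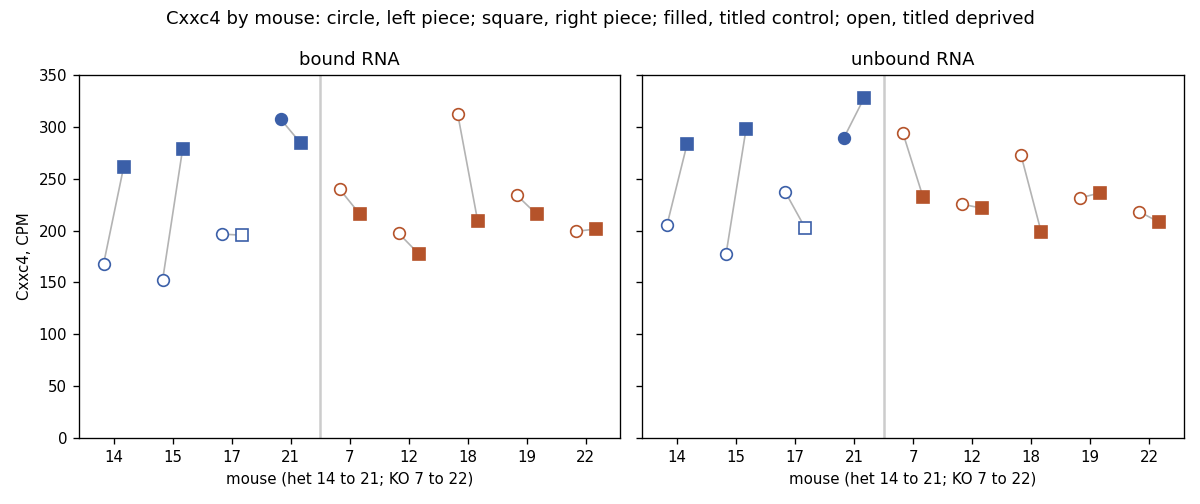
Cxxc4 in CPM (y axis, from 0) in the left piece (circle) and right piece (square) of each mouse of the heterozygous line (14, 15, 17, 21) and knockout line (7, 12, 18, 19, 22), in bound RNA (left panel) and unbound RNA (right panel); filled symbols are titled control and open symbols deprived, and grey lines join a mouse's pieces. Both pieces of mouse 17 are low (196.6 and 195.6 CPM, bound) and both of mouse 21 are high (307.4 and 284.2 CPM, bound), as their titles group them.

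Several lists of markers of other regions and cell types also differed by title in the heterozygous line, and all 12 are given here. In bound RNA 14 of 14 meningeal and vascular fibroblast markers lay above 0 (median 1.05, 3 called), summing to 252.1 to 301.9 CPM in deprived and 184.0 to 200.4 CPM in control pieces. The 9 hippocampal markers tested all lay above 0 (median 0.63, 7 called), with sums of 1995 to 2767 against 1452 to 1613 CPM. Thalamic markers had a median of 0.58 (9 of 11 above 0, 5 called higher, 1 lower) and sums of 347.1 to 398.0 against 276.6 to 301.5 CPM. The choroid plexus markers were not called (0 of 8, all above 0, median 1.27), and their deprived sums of 343.9 to 562.8 CPM lay within the control range of 6.34 to 583.3 CPM. Of the resident cell types, 20 of 20 microglia markers lay above 0 (median 0.53, 11 called, 510.1 to 611.6 against 281.7 to 425.7 CPM), 18 of 20 astrocyte markers did so (0.28, 7 called, 1586 to 1704 against 1315 to 1465 CPM), and 13 of 18 neuron markers lay below 0 (-0.19, 1 called higher and 4 lower, 12380 to 14450 against 13720 to 17390 CPM). Oligodendrocyte lineage markers had a median of -0.13 (9 of 12 below 0, 2 called lower) and sums of 169.1 to 185.2 against 192.7 to 219.8 CPM, without overlap. Striatal markers had a median of -0.02 (1 called higher and 1 lower of 12) and overlapping sums of 638.1 to 811.1 against 700.4 to 1078 CPM. The sums of endothelial (median 0.26, 1 of 12 called higher), mural (0.10, 0 of 9 called) and radial glia and progenitor markers (0.07, 4 of 14 called higher) also overlapped between the groups. The unbound medians were 1.13, 0.86, 0.93, 1.45, 0.24, 0.27 and -0.03 for the first 7 lists and -0.08, 0.06, 0.36, 0.32 and 0.06 for the other 5, in the same order. At most 1 marker of each of the fibroblast, choroid plexus and mural lists was at 0 in any library of this line, and no marker of the other 9 lists was. The part of these markers in the Cxxc4 difference was not tested. In the knockout line the thalamic markers lay the other way (11 of 12 below 0, median -1.11 in bound RNA, 269.6 to 423.4 CPM deprived against 437.7 to 682.7 CPM control). The bound sums of the fibroblast (186.6 to 250.3 against 154.3 to 367.5 CPM) and microglia lists (183.0 to 532.8 against 152.4 to 506.6 CPM) overlapped there. So did those of the astrocyte, neuron, oligodendrocyte lineage, endothelial, mural and striatal lists. The hippocampal, choroid plexus and radial glia and progenitor lists are not given for the knockout line. The part of any list in the knockout Cxxc4 values was not tested.

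Dkk3, Sfrp1 and Kremen1 came nearest to the threshold in the heterozygous line. Bound Dkk3 held 28.4, 28.8, 28.3 and 29.6 CPM in the deprived pieces 14L, 15L, 17L and 17R and 30.4, 34.6, 34.3 and 44.2 CPM in the control pieces 14R, 15R, 21L and 21R. The groups did not overlap, and the difference was -0.33 ± 0.10 (adjusted p = 0.054). DESeq2 called it (-0.34, adjusted p = 0.018), as did edgeR with the replicate number as a replicate block (-0.31, 0.041) and without piece 14R (-0.40, 0.021). That block pairs the pieces of mouse 17 with those of mouse 21, which are different animals. The Dkk3 difference stood at -0.35 ± 0.13 (0.13) without pieces 17R and 21L and at -0.18 ± 0.11 (0.40) in mice 14 and 15 alone. In unbound RNA it was -0.20 ± 0.11 (0.37), and -0.36 ± 0.11 (0.14) without pieces 17R and 21L.

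The Sfrp1 values of piece 21L lay apart from the other control pieces. Bound Sfrp1 held 31.5, 25.9, 31.7 and 30.6 CPM in the deprived pieces and 38.8, 38.5, 27.7 and 40.7 CPM in the control pieces in the same order, and unbound Sfrp1 30.5, 27.9, 35.2 and 35.1 against 39.7, 40.7, 27.0 and 42.2 CPM. Piece 21L, titled control, lay among the deprived pieces in bound RNA and below them all in unbound RNA. The differences were -0.29 ± 0.11 (adjusted p = 0.12) and -0.18 ± 0.12 (0.48), and without pieces 17R and 21L -0.40 ± 0.10 (0.045) and -0.34 ± 0.09 (0.10). Without the bound library of 21L alone it was -0.40 (0.018). In mice 14 and 15 alone, with the animal as replicate block, Sfrp1 fell by 0.43 ± 0.12 (0.03) and 0.42 ± 0.08 (0.011).

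Unbound Kremen1 held 3.07, 2.74, 2.94 and 3.13 CPM in the deprived and 2.45, 2.55, 2.21 and 2.23 CPM in the control pieces. The groups did not overlap, and the difference of 0.37 ± 0.14 was not called (adjusted p = 0.16), nor without pieces 17R and 21L (0.33 ± 0.17, 0.38). Bound Kremen1 overlapped between the groups, with a difference of 0.11 ± 0.14 (adjusted p = 0.68). Sfrp2, Frzb and Dkk2 lay between -0.18 and 0.22 in both fractions, with adjusted p from 0.45 to 0.97. These lay between -0.09 and 0.21 without pieces 17R and 21L (0.62 to 0.95).

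With samples grouped by title, the response to deprivation of Cxxc4 differed between the microglial lines. Knockout minus heterozygous, it came to 0.88 ± 0.16 in bound RNA (adjusted p = 0.026) and 0.65 ± 0.12 in unbound RNA (0.0097), and Cxxc4 was the only member called, against 0.51% of 19601 and 1.79% of 19278 genes in either direction. Of all genes 0.194% were called higher and 0.316% lower in bound RNA, and 0.508% and 1.28% in unbound RNA. The bound knockout libraries of the deprived pieces 7L, 12L, 18L, 19L and 22L held 239.9, 197.4, 312.6, 234.2 and 199.2 CPM and the control pieces 7R, 12R, 18R, 19R and 22R held 216.0, 177.6, 209.1, 215.6 and 201.5 CPM. These groups overlapped, with piece 18L the highest. Title and side coincide in the knockout line but not in the heterozygous line. Genotype, the table and the labelled RNA type cannot be told apart in the differences between these lines. Wif1 stood at -1.59 ± 0.82 in the bound comparison (0.32), and the other 6 members at -0.10 to 0.41 in bound and -0.32 to 0.28 in unbound RNA. Without pieces 17R and 21L the differences were 0.88 ± 0.18 (0.079) and 0.65 ± 0.14 (0.048), and with the heterozygous libraries grouped by side letter 0.51 ± 0.24 (0.94) and 0.40 ± 0.18 (0.55). The bound difference missed the threshold when any of 5 libraries was left out (14L, 15L, 21L and 21R of the heterozygous and 12R of the knockout line, adjusted p 0.053 to 0.075), and the unbound difference kept it in all 18 such fits.

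None of the members was called between knockout and heterozygous cortex in level, against 0.0561% of 19601 genes in bound (0.0204% higher, 0.0357% lower) and 0.0674% of 19278 genes in unbound RNA (0.0207% and 0.0467%), and DESeq2 called none either. Kremen1 had an unadjusted p under 0.05 with edgeR, at 0.24 ± 0.10 in bound (adjusted p = 0.55) and 0.26 ± 0.09 in unbound RNA (adjusted p = 0.57). Without pieces 17R and 21L it stood at 0.19 ± 0.11 (0.80) and 0.26 ± 0.10 (0.58), and no member was called. Mean levels of Kremen1 were 6.02 against 5.19 CPM in bound and 3.16 against 2.67 CPM in unbound RNA. The labels give polyA RNA for the knockout and total RNA for the heterozygous libraries, and genotype, this label and the table cannot be told apart. No member was called for a difference in its response to deprivation between bound and unbound RNA in any line, against 0.0% of genes in each (edgeR; 546, 1904 and 335 genes at an unadjusted p under 0.05 in the astrocyte, heterozygous and knockout lines, none of them a member), and DESeq2 called no member. In the heterozygous line without pieces 17R and 21L that difference ran from -0.26 to 0.07 over the 7 members, with 0 called and adjusted p from 0.85 to 0.99.

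Further genes of the pathway were called with deprivation in the microglial lines and none of 83 and 79 tested in the astrocyte line (edgeR). With deprivation in the heterozygous line 6 of 83 other Wnt genes rose and 9 fell in bound RNA, where 5.52% of all genes rose and 4.76% fell. In unbound RNA 5 of 80 rose and 0 fell, against 2.7% and 1.05% of all genes. The receptors Fzd7 and Fzd1 rose by 1.04 ± 0.16 and 1.12 ± 0.17 in bound and by 1.36 ± 0.18 and 1.24 ± 0.12 in unbound RNA, and the ligand Wnt5a by 0.55 ± 0.12 and 0.70 ± 0.12. The receptor Fzd4 rose by 0.61 ± 0.15 (adjusted p = 0.02) and the receptor Fzd3 fell by 0.43 ± 0.10 (0.016) in bound RNA. Tle3, a corepressor of Tcf factors, fell by 0.39 ± 0.07 and Apc2 by 0.34 ± 0.09 in bound RNA. In the knockout line the only Wnt gene called was Tcf7l2, the nuclear partner of β-catenin that thalamic neurons express strongly, which fell by 2.83 ± 0.35 in bound (adjusted p = 0.015) and 2.89 ± 0.36 in unbound RNA (0.018). Tcf7l2 is also in the list of thalamic markers. The heterozygous values rest on the titles, as those of Cxxc4 do.

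Across the 28 unbound libraries, after the mean of each line was taken away, the genes most like Cxxc4 in log2 CPM were the transcription factor gene Mef2c (Pearson r = 0.94), L3mbtl3 (0.93) and Rnf152 (0.93). Frzb was most like Cers5 and Rxylt1 (0.82 each), Sfrp1 like Diaph3 (0.80), Dkk3 like Fam174b (0.77), Sfrp2 like Unc80 (0.73) and Dkk2 like Luzp2 (0.73). Kremen1 and Wif1 had no gene above 0.59, the nearest being Porcn and Rora (0.58). Among the members Sfrp1 and Dkk3 were most alike (0.64), followed by Dkk3 and Cxxc4 (0.47), and Cxxc4 and Kremen1 lay farthest apart (-0.43). These are descriptions over libraries that share pieces, depth and the heterozygous titles.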

How the data were processed

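The values are gene-level read counts that the authors deposited, not normalized, in 1 table per mouse line. The tools were featureCounts 2.0.0 and HISAT2 2.2.0 on GRCm38/mm10, besides cutadapt 2.9 and Trim Galore 0.6.4, per the submitters' processing notes, which give no role or order. Whether strand was used in counting is not given in the sources used here, and per the labels' protocols RNA was amplified before sequencing, so counts are not independent molecules.

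The 8 members, the pathway lists and the marker lists were chosen with earlier results of these data known. Samples were grouped by title. Each comparison was fitted on all genes with edgeR 4.0.16 (R 4.3.3, limma 3.58.1; TMM, filterByExpr, quasi-likelihood test, Benjamini-Hochberg adjustment, threshold 0.05), over 17 comparisons. SE is the log2 difference over the square root of F. CPM was TMM-scaled within each table, and per-kilobase levels used union exon length from GENCODE vM21. The script was tested on simulated data. All members are named in every comparison, with up to 4 called genes per pathway list by smallest p. Likeness used log2 CPM with a prior count of 2 and genes of at least 3 in mean log2 CPM, 3 per member. Alternatives were DESeq2 1.42.0 (size factors, Wald test), no filter on low counts, replicate blocks, side letters, leaving out pieces and leaving out each library. Leaving pieces 17R and 21L out of the bound-to-unbound and level comparisons, and side letters in the knockout minus heterozygous comparison, were added after seeing the data.

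Same-numbered knockout pieces come from 1 mouse, as do those of mice 14 and 15 in the heterozygous line. Same-numbered samples deviated together (correlation over 0.1) in 4 of 5 knockout mice in bound and 3 of 5 in unbound RNA, in 1 of 4 pairs in each heterozygous fraction, and in 0 of 5 and 3 of 5 in the astrocyte line. Between any 2 libraries of a table at least 92.8% of genes differed in count, so none was treated as a duplicate.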

Additional observations from a re-analysis of the deposited data

Results flagged for a closer look

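Of the 96 groups of libraries checked for a value far from the rest (8 members in 12 groups), 7 held one, and chance gives about 1 in 20. Sfrp1 of piece 21L, titled control in the heterozygous line, was 27.66 CPM in bound RNA against 38.53 to 40.66 CPM in the other control pieces, and 27.04 CPM in unbound RNA against 39.74 to 42.2 CPM. Sfrp2 was 7.238 CPM in the bound deprived library 4 of the astrocyte line against 4.738 to 5.35 CPM in the others, and 11.22 CPM in its unbound control library 5 against 8.131 to 8.866 CPM. Piece 15R of the heterozygous line had bound Dkk2 at 1.152 CPM against 1.79 to 1.874 CPM in the other control pieces, and bound Kremen1 at 6.122 CPM against 4.412 to 4.702 CPM. Wif1 was 0.4059 CPM in the unbound deprived piece 7L of the knockout line against 0.08834 to 0.1563 CPM in the others.

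Tests of a difference between lines called 3 members. The bound-to-unbound difference was higher in the astrocyte than in the heterozygous line by 0.677 for Sfrp1 and 0.683 for Dkk3, which is 2 of 8 members in a test that called 24.7% of all genes higher. The response of Cxxc4 to deprivation was higher in the knockout than in the heterozygous line by 0.88 in bound and 0.654 in unbound RNA, with samples grouped by title, where 0.194% and 0.508% of all genes were called higher.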

How the results depend on the processing

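The number of members called with deprivation in bound RNA of the heterozygous line (1) was 2 with DESeq2 size factors, the DESeq2 Wald test, the replicate block, without pieces 17R and 21L and in mice 14 and 15 alone with the animal as replicate block, 3 without a filter on low counts, 0 by side letter, and 1 to 2 when each library was left out. Of all genes, those settings called 1896, 2709, 2202, 741 and 1270, then 2642 without a filter and 0 by side letter, against 1850 in the main fit. The unbound number (1) was 0 by side letter and 2 in mice 14 and 15 alone, where 808 of all genes were called against 678. For knockout minus heterozygous the bound number (1) was 0 without pieces 17R and 21L and by side letter, and 0 to 1 when each library was left out, and the unbound number (1) was 0 by side letter. The cause of these changes was not tested. Beside the Dkk3, Sfrp1 and Cxxc4 calls given with their results, the replicate block changed no other member's call. Leaving each library out kept the heterozygous Cxxc4 fall in 8 of 8 fits in bound (-0.724 to -0.61) and unbound RNA (-0.586 to -0.442). Of 2830 member values under alternatives, 181 had the other sign with neither fit past the threshold. Counts of all genes, on which the shares printed beside the members rest, moved by over 1.5 times as follows. When each library was left out, deprivation gave 938 (without 15L) to 2089 genes in heterozygous bound (1850) and 247 (without 15L) to 1141 (without 14R) in unbound RNA (678), and 0 to 2 and 0 to 22 (without 22R) in the knockout line (1 and 7). Bound minus unbound gave 0 to 60 (without unbound 21L) in the heterozygous line, knockout minus heterozygous 0 (without 15L or 21R) to 441 (without 7R) in bound (100) and 69 (without 15L) to 732 (without 14R) in unbound RNA (345), and level 7 (without 17R or 21L) to 31 (without 14L) and 11 to 28 (without 14L). Without a filter on low counts, deprivation gave 85 and 143 genes in the astrocyte line (0 and 0), 1459 in heterozygous unbound RNA (678), and 28 and 52 in the knockout line (1 and 7). The Wald test gave 7 in astrocyte bound RNA, 1176 in heterozygous unbound RNA, and 11 and 35 in the knockout line. Side letters gave 0 and 0 in the heterozygous line (1850 and 678), and leaving out pieces 17R and 21L gave 741 and 294. The replicate block gave 2 and 3 in the knockout line, and leaving out mice 7 and 18 gave 0 and 1. For bound minus unbound (0 in each line), no filter gave 15, 118 and 1, the Wald test 170 in the heterozygous line, the replicate block 1 in the astrocyte and 243 in the heterozygous line, and mice 14 and 15 alone 1. For knockout minus heterozygous (100 and 345), no filter gave 576 and 872, the Wald test 734 and 841, leaving out pieces 17R and 21L 5 and 66 and side letters 2 and 2, and in unbound RNA the animal block gave 186 and leaving out mice 7 and 18 gave 121. For level (11 and 13), no filter gave 143 and 130, the Wald test 71 and 64, summing each animal's libraries 1 and 3, and leaving out pieces 17R and 21L gave 7 in bound RNA. With 0 to 21 counts per library, Wif1 was too shallow to compare.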

Other observations

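Left and right pieces of the same mouse can also be set against each other across both microglial lines, although in 7 of the 9 mice the left piece is the one titled deprived, so that side and title cannot be told apart there. Bound Sfrp1 was lower in the left than in the right piece of 8 of 9 mice and unbound Sfrp1 in 6 of 9. Of the mice with 1 title on both sides, left minus right was 0.05 and -0.56 bound and 0.0 and -0.64 unbound for mice 17 and 21. Unbound Sfrp2 was lower on the left in 8 of 9 mice but bound Sfrp2 in only 3 of 9, so the fractions of Sfrp2 did not lean to 1 side. Grouped by side letter in the heterozygous line, Sfrp1 stood at -0.34 ± 0.11 in bound (adjusted p = 0.91, edgeR) and -0.34 ± 0.09 in unbound RNA (0.86). These counts were chosen after the values were seen, and no test was made of them.

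Left against right, Dkk3 leaned to opposite sides in the microglial lines. It was lower in the left piece of 4 of 4 heterozygous mice in both fractions and higher in 4 of 5 knockout mice in both fractions. In the knockout mice left minus right ran from -0.53 to 0.33 bound and from -0.06 to 0.28 unbound. The Dkk3 counts were also chosen after the values were seen, and no test was made of them. Mice 17 and 21 carry the same title on both sides, and their left minus right was -0.07 and -0.37 bound and -0.16 and -0.52 unbound. In mice 14 and 15 it was -0.10 and -0.27 bound and -0.14 and -0.63 unbound. The knockout deprivation estimates were 0.09 ± 0.13 bound and 0.07 ± 0.09 unbound, not called. The knockout minus heterozygous difference in the response to deprivation, by title, was 0.41 ± 0.18 in bound (adjusted p = 0.25) and 0.28 ± 0.15 in unbound RNA (0.36), not past the threshold with edgeR. In the knockout mouse 18 the left piece was the exception in both fractions, with 22.7 against 32.7 CPM bound and 40.8 against 42.7 CPM unbound.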
